A study of Mus musculus with 6 samples.

Results

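Acetylated histone H3 (H3ac) was examined at the 1139 regions whose name in the deposited table carried the code Y alone, out of 24431 regions in all (4.66%). The code is read here as Young, Old (O) and OldAcetate (AC), which the labels do not define, and these regions are called Young-only regions. They were chosen by that code and by a length under 20000 bp. The authors assigned the code from the same libraries. Every level, group difference, p-value and count of calls of the Young-only regions below is therefore a description and supports nothing by itself. The length limit removed none of them: the longest region with the code Y alone was 19000 bp, so no member lay just outside the limit.

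The table holds H3ac CUT&RUN values for 6 libraries of cultured mouse mesenchymal stem cells (MSCs), 2 libraries per group. CUT&RUN directs a nuclease to marked chromatin with an antibody and sequences the released fragments. The mice behind the Young group were 3 to 5 months old, and those behind both Old and OldAcetate were 18 to 22 months old. The OldAcetate cells alone received sodium acetate, at 5 mM over 3 days, and every group was grown in 2% oxygen. With 2 libraries per group the spread is poorly known, and nothing in the labels says whether replicates were separate animals or separate cultures. The design asks how H3ac differs with age and with acetate in old cells. MSC identity was checked over start sites in the whole table: 9 of 9 MSC markers had a region there, against 3 of 6 haematopoietic markers (Spi1, Cd68 and Csf1r) and 0 of 4 endothelial markers. The part of other cells in any value below was not tested.

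Acetyl groups on the tail of histone H3 weaken its contact with DNA and are read by bromodomain proteins, so the mark is typical of active promoters and enhancers. The acetyl donor is acetyl-CoA, which cells can make from acetate. MSCs give rise to bone, fat and cartilage, and much of the chromatin that differs between their fates lies in enhancers far from start sites.

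Sequences of 9 Young-only regions are shown to give the DNA behind the values that follow, all from GRCm38/mm10 and all written 5′ to 3′ in lower case. Capitals mark matches, on either strand, to 7 motifs: AP-1 (TGANTCA), TEAD (GGAATG), RUNX (TGTGGT), C/EBP (TTGCNCAA), SP/KLF (GGGCGG), ETS (CCGGAA) and E-box (CACGTG). AP-1 and E-box letters read the same on both strands, and a TEAD match can share letters with an ETS match. The first 3 are the 250 bases before a RefSeq start site and were chosen to contrast promoters with different letters: Eng on the plus strand at chr2:32646345-32646594, Il1rn on the plus strand at chr2:24336610-24336859 and Tuba1b on the minus strand at chr15:98934391-98934640. Of the 173 genes with a Young-only region at a start site, 140 had an entry in the RefSeq promoter table.
Eng promoter: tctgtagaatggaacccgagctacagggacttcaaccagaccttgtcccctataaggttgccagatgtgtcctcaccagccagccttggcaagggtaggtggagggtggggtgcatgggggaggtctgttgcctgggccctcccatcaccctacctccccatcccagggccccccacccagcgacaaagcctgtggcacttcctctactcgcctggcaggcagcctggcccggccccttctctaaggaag
Il1rn promoter: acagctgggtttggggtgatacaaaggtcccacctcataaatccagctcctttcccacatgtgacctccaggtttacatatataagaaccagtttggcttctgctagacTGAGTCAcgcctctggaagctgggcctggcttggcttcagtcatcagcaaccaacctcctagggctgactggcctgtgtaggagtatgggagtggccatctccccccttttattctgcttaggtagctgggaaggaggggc
Tuba1b promoter: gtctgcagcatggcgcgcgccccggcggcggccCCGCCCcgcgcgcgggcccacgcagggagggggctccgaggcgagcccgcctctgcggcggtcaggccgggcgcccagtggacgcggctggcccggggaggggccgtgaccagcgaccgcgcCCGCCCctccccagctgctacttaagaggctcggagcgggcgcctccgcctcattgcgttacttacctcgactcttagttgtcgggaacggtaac
The Eng window held no match to any of the 7 motifs and 4 CpG dinucleotides. The Il1rn window held 1 AP-1 match and 1 CpG, and the Tuba1b window held 2 SP/KLF matches and 35 CpGs. The other 6 are the central 200 bases of regions within genes or beside them, plus strand and free of annotated exons, shown because the regions belong to genes of adhesion, inflammation, matrix, cartilage and fat. They are Cd44 at chr2:102853401-102853600, Tln2 at chr9:67211151-67211350, Nfkb1 at chr3:135641401-135641600, the region beside Dcn at chr10:97469401-97469600, Sox5 at chr6:144074401-144074600 and Zfp423 at chr8:87662901-87663100.
Cd44 intron: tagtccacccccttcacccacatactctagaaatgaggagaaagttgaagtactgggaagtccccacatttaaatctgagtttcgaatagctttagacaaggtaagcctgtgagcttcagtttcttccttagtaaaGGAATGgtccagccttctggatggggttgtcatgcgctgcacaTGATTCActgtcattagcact
Tln2 intron: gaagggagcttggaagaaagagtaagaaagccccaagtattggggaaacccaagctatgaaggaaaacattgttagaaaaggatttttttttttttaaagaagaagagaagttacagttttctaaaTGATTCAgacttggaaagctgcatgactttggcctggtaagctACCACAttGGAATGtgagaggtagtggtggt
Nfkb1 intron: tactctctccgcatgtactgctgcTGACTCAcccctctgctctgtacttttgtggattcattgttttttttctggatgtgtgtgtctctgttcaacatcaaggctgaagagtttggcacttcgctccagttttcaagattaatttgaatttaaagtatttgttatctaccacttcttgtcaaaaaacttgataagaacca
Dcn flank: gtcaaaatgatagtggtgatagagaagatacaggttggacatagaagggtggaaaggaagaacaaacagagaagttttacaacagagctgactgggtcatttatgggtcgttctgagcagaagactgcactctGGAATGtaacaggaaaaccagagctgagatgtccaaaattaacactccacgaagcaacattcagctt
Sox5 intron: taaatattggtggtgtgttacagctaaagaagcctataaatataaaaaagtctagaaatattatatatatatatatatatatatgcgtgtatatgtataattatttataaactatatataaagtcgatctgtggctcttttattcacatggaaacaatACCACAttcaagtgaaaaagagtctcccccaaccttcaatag
Zfp423 intron: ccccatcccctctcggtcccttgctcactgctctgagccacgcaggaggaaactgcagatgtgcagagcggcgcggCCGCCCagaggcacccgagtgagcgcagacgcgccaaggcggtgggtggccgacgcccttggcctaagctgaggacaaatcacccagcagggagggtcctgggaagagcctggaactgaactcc
Cd44 carried 1 TEAD and 1 AP-1 match. Tln2 carried 1 match each to AP-1, RUNX and TEAD. Nfkb1 carried 1 AP-1 match, the Dcn flank 1 TEAD match, Sox5 1 RUNX match and Zfp423 1 SP/KLF match with 13 CpGs.

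Young-only regions were short and weak. They covered 4.81 Mb, with a median length of 3500 bp (quartiles 2500 and 5000 bp) against 5500 bp over all regions, and 73.6% of them lay among the lowest 25% of all regions by mean level. The values are RPM, the reads of a region relative to the library total, without division by region length. Regions coded for Young and OldAcetate and those coded for Old and Young were also short, with a median length of 4000 bp in each. Their median mean levels were 9.36 and 9.14 RPM, against 7.81 RPM in Young-only regions and 15.7 RPM over all regions. Library totals ran from 2163351 reads in Old replicate 1 to 3039481 reads in Young replicate 1, and 45.9% to 64.8% of each library fell in regions. The median Young-only region held 32 and 22 reads in Young replicates 1 and 2, 15 reads in each Old replicate, and 21 and 17 reads in OldAcetate replicates 1 and 2. At 15 reads the counting error alone is 25.8% of the value, and at 32 reads it is 17.7%.

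The code did not mean that H3ac reads were absent from old cells. No Young-only region was without reads in Young replicate 1 and 1 was in Young replicate 2, and 27 and 26 were in Old replicates 1 and 2. In the acetate-treated libraries 12 and 11 had none. Regions with under 10 reads made up 4.65% and 6.94% of the Young-only regions in the Young libraries, 19.6% and 20.1% in the Old libraries and 9.66% and 14.3% in the OldAcetate libraries. Such sparse counts were thus most frequent in Old. Over all regions they were also most frequent in Old, with 2.97% and 2.62% in the Old libraries. The shares over all regions were 0.364% and 0.806% in the Young libraries and 0.651% and 1.27% in the OldAcetate libraries.

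Per kb of region, the median Young-only level was 2.90 and 2.45 RPM in Young replicates 1 and 2, 1.85 and 1.59 in Old replicates 1 and 2, and 1.90 and 1.95 in OldAcetate replicates 1 and 2. Both Young medians lay above the other 4, and both OldAcetate medians lay above both Old medians. Regions coded for all 3 groups, of the same length limit, had medians of 3.29 and 2.96 RPM per kb in the Young libraries, 2.60 and 2.39 in the Old ones and 2.94 and 2.90 after acetate. In the Young libraries the Young-only regions were close to the regions coded for Young and OldAcetate, with 2.76 and 2.45 RPM per kb, and in the Old libraries to the same regions, with 1.85 and 1.72. The OldAcetate libraries separated the 2 codes, with 2.40 and 2.41 RPM per kb in the regions coded for Young and OldAcetate. As read here, the 2 codes differ only in the letters AC, and they came from these same libraries.

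**Figure D1:**
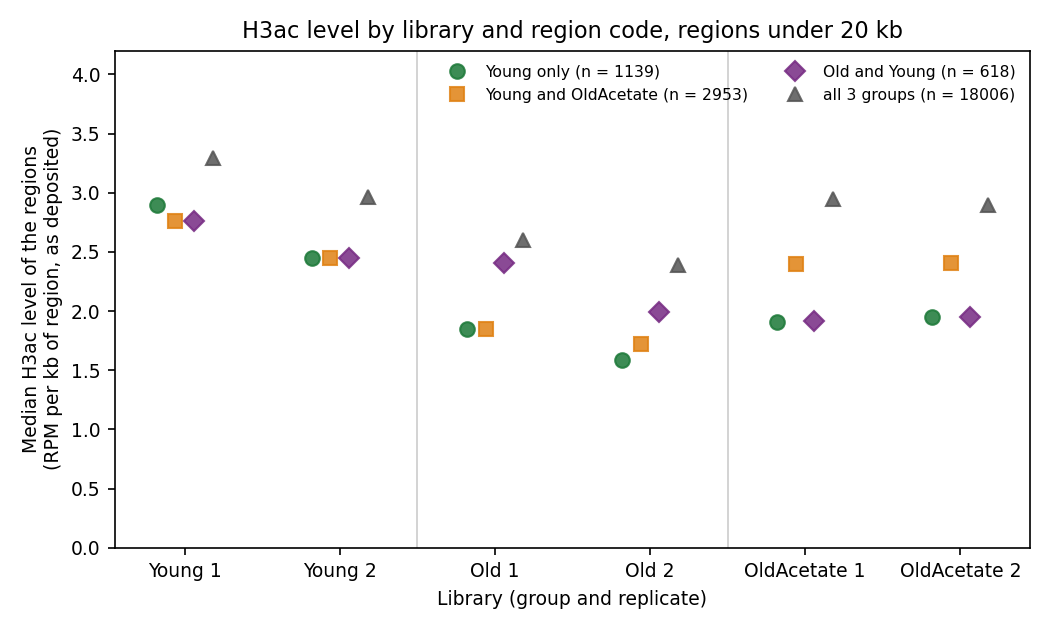
Median H3ac level in RPM per kb (vertical axis) in each of the 6 libraries (horizontal axis) for regions under 20 kb with 4 codes. Young-only regions (green circles) lie at 2.90 and 2.45 in Young and between 1.59 and 1.95 in the other 4 libraries.

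The median Young-only region had a mean level of 9.76 ± 1.09 RPM in young cells, 6.45 ± 0.684 in old cells and 7.07 ± 0.0241 in treated cells (SD over 2 libraries each). Young replicate 1 was the highest library in 692 of the Young-only regions and Young replicate 2 in 307. Old replicate 2 was the lowest library in 462 and Old replicate 1 in 264. Young replicate 1 and Old replicate 2 were also the most frequent highest and lowest libraries over all 24431 regions, in 49.0% and 48.4% of them.

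Both Young libraries exceeded the other 4 in 531 Young-only regions (46.6%), against 24.4% of all regions. Both exceeded both Old libraries in 769 (67.5%), against 60.2% of all regions, and both OldAcetate libraries in 666 (58.5%), against 29.8%. Regions coded for Young and OldAcetate had 67.5% and 26.1% in these 2 contrasts, and those coded for Old and Young had 38.7% and 61.8%. The reverse, with both Young libraries below, held in 2 Young-only regions against Old (0.176%, against 1.29% of all regions). It held in 9 against OldAcetate (0.790%, against 7.60%), and in the rest the groups overlapped. Both OldAcetate libraries exceeded both Old libraries in 286 (25.1%), against 47.1% of all regions. The code came from these same libraries by a rule that is not given, so the differences from the background shares are not findings. Without Young replicate 2 the first of these counts was 901 (79.1%), against 57.0% of all regions, and with each library scaled to the common median it was 246 (21.6%), against 6.66%. By group means, 678 regions (59.5%) ran Young, then OldAcetate, then Old, against 54.3% of all regions, and 367 (32.2%) ran Young, then Old, then OldAcetate, against 13.0%.

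Levels differed between libraries over the whole table, and a scaling of each library to the median deviation of all regions was applied before the fit. On the log2(RPM + 0.5) scale, the median of all regions without this scaling was -0.35 for Old vs Young. For OldAcetate it was 0.24 against Old and -0.11 against Young. Differences below are relative to that shared shift unless stated otherwise, and they understate changes of low regions. The median Young-only region differed by -0.23 in Old vs Young (quartiles -0.45 and -0.01). Of the 1139 differences, 866 were negative (76.0%, against 50.8% of all regions). In OldAcetate vs Young the median was -0.33 (quartiles -0.54 and -0.13), with 994 negative (87.3%, against 49.7% of all regions). In OldAcetate vs Old the median was -0.10 after scaling and 0.14 in RPM as deposited, so its direction turned with the scaling.

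Other codes are given beside these medians. Regions coded for Young and OldAcetate had -0.17 for Old vs Young and 0.16 for treated against untreated old cells. Regions coded for Old and Young had 0.09 and -0.40, and regions coded for all 3 groups had 0.02 and -0.01. In OldAcetate vs Young the medians of these codes, in the same order, were 0.003, -0.30 and 0.02. The regions coded for Old and Young were thus close to the Young-only regions there, with 86.6% of differences negative against 87.3%. The order follows the letters of the codes.

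**Figure D2:**
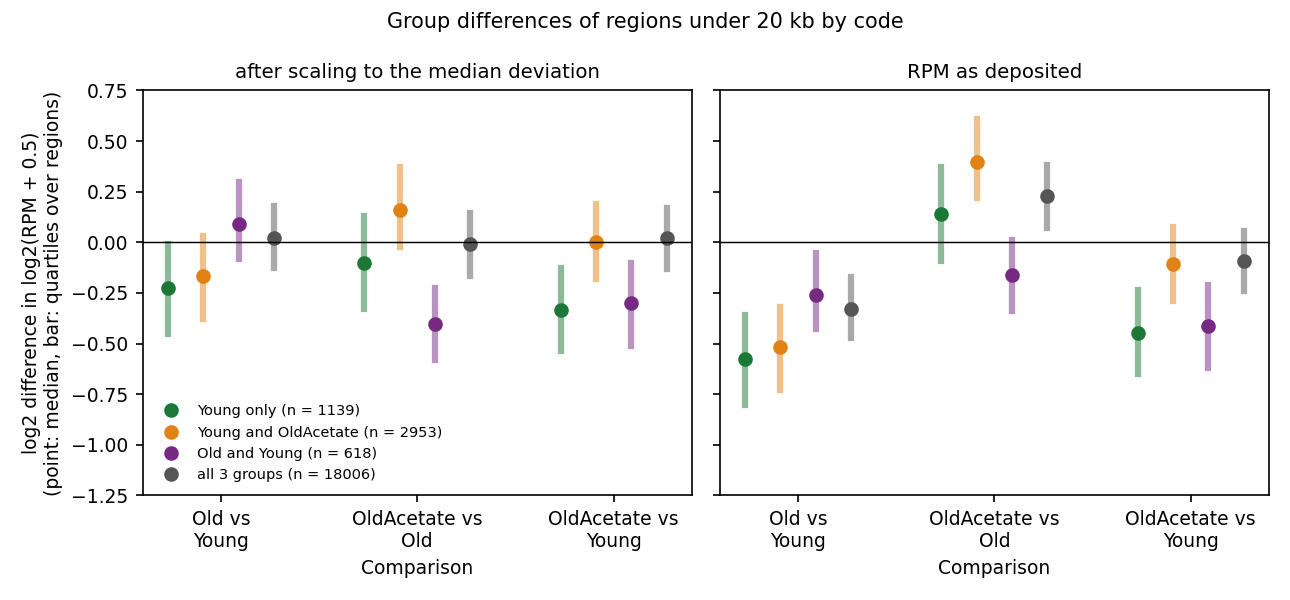
Median (point) and quartiles (bar) over regions of the log2 difference (vertical axis) in 3 comparisons (horizontal axis), for 4 codes, after scaling (left) and in RPM as deposited (right). For Young-only regions (green) the OldAcetate vs Old median lies at -0.10 on the left and 0.14 on the right.

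No Young-only region was called in any comparison by limma, fitted to all 24431 regions and called at an adjusted p under 0.05 (Benjamini-Hochberg). In Old vs Young 0 were called, against 0.00819% of all regions. Both comparisons of OldAcetate also had 0 calls, against 0.0% of all regions. At an unadjusted p under 0.05, Old vs Young had 104 Young-only regions (97 of them lower in Old), or 9.13%, against 5.54% of all regions. OldAcetate vs Old had 75 (56 lower in OldAcetate), against 6.24% of all regions, and OldAcetate vs Young had 140, all lower in OldAcetate, against 5.08%. Tests with edgeR on the recovered reads also called 0 in each comparison and gave 104, 57 and 191 at the unadjusted threshold, against 5.19%, 5.34% and 6.76% of all regions. The code came from the same libraries, so the differences from these background shares are not findings.

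With RPM as deposited, 96 Young-only regions (8.43%) were called in Old vs Young, all lower in Old, against 9.52% of all regions. Of these, 15 lay at promoters, 39 within genes and 42 between genes. Without Young replicate 1 the count was 0 (9 over all regions), without Old replicate 1 it was 175 (3252 over all regions), and without each of the other 4 libraries it ran from 33 to 50 (495 to 2135 over all regions). In OldAcetate vs Old 1 was called (0.0878%), higher in OldAcetate, against 0.311% of all regions, and the count was 0 without either OldAcetate replicate, 6 without Old replicate 1 (441 over all regions) and 2 without Old replicate 2 (103 over all regions). In OldAcetate vs Young 0 were called, against 0.0% of all regions.

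The differences of the Young-only regions varied with their length. The 181 regions under 2500 bp had a median Old vs Young difference of -0.61, the 622 regions from 2500 to under 5000 bp -0.26, the 277 regions from 5000 to under 10000 bp -0.08 and the 59 longer regions -0.05. In OldAcetate vs Young the medians in the same order were -0.64, -0.34, -0.21 and -0.21. The shortest class held a median of 17 reads in Young replicate 1 and 5 reads in each Old library, whereas the longest held 83 and 42 reads. Regions coded for Young and OldAcetate also ran from -0.40 to -0.04 across these lengths in Old vs Young, and those coded for all 3 groups from 0.11 to 0.01. The part of read depth in this pattern was not tested.

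**Figure D3:**
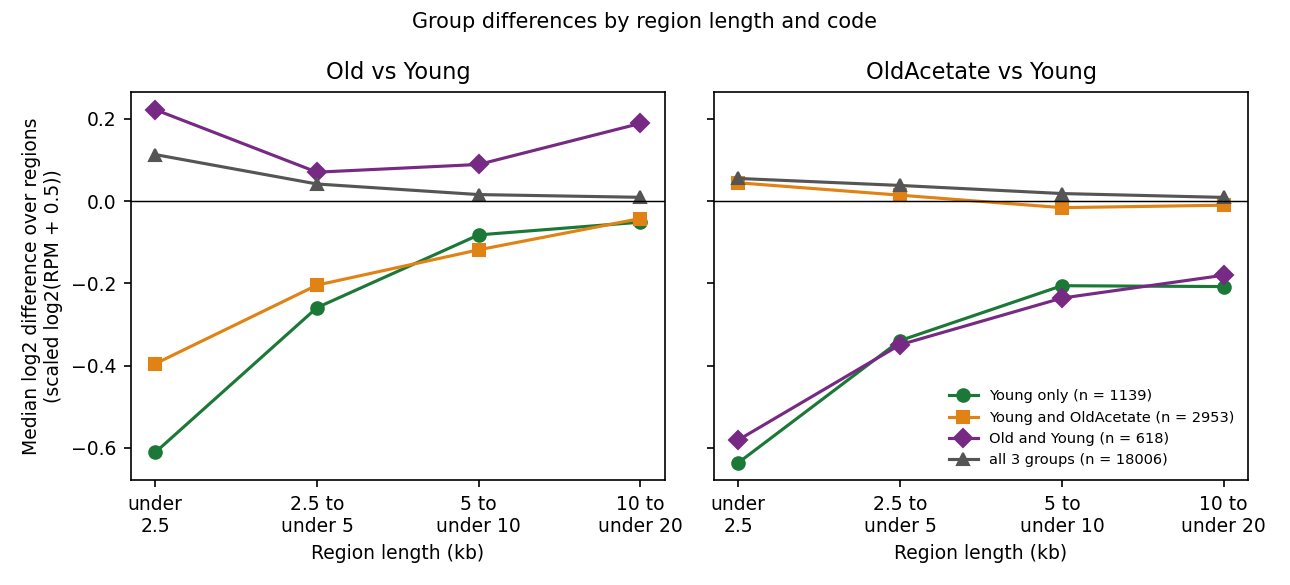
Median scaled log2 difference over regions (vertical axis) in 4 length classes in kb (horizontal axis) for 4 codes, in Old vs Young (left) and OldAcetate vs Young (right). Young-only regions (green circles) run from -0.61 to -0.05 on the left and from -0.64 to -0.21 on the right.

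Many of the shortest regions were the edges of other regions. A Young-only region touched a region with another code, with no base between them, in 82 cases (7.20%), compared with 1.06% of all regions, 1.66% of the regions coded for Young and OldAcetate and 0.566% of those coded for all 3 groups. Of the 82, 71 were touched on 1 side and 11 on both sides, 62 touched only regions coded for all 3 groups, and 78 were under 2500 bp. Their median length was 500 bp and their median read count was 8 and 4 in Young replicates 1 and 2, 1 and 1 in Old replicates 1 and 2, and 2 and 2 in OldAcetate replicates 1 and 2. Their median Old vs Young difference was -1.01, against -0.21 in the other Young-only regions.

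Young-only regions lay mostly away from start sites. A start site of a protein-coding transcript was within 1 kb of 164 of them (14.4%), 479 (42.1%) lay within gene bodies and 496 (43.5%) between genes. The promoter share was 45.7% over all regions, 50.7% in regions coded for all 3 groups, 25.4% in those coded for Young and OldAcetate and 12.5% in those coded for Old and Young. The median distance to a start site was 28177 bp, against 6998 bp over all regions, and 71.2% overlapped no exon of a protein-coding gene, against 43.2%. Regions coded for Old and Young had 31150.5 bp and 73.0%, and those coded for Young and OldAcetate had 21736 bp and 60.1%. The Old vs Young medians of the Young-only classes were -0.29 for promoters, -0.19 within genes and -0.24 between genes. On single chromosomes the share of regions coded Young only ran from 3.48% on chromosome 3 to 6.13% on chromosome X.

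Base composition followed position. The median GC content of Young-only regions was 45.3% and the median CpG count 10.9 per kb, against 46.2% and 14.0 per kb over all regions. Young-only promoters had 23.2 CpGs per kb and promoters coded for all 3 groups had 23.8. Outside promoters the medians were 10.7 and 10.5 within genes and 10.0 in both codes between genes. Repeats covered a median of 18.1% of a Young-only region.

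Motif letters in the central 500 bp were counted next. The AP-1 letters, bound by FOS and JUN proteins, were found in 20.3% of Young-only regions and 16.9% of all regions. The TEAD letters, bound by the partners of YAP and TAZ, were found in 29.2% and 25.4%, and the RUNX letters, bound by the osteoblast factor RUNX2 among others, in 31.0% and 30.9%. The C/EBP letters were found in 3.51% and 4.72%, and the E-box in 7.20% and 7.47%. SP/KLF letters, frequent in CpG-rich promoters, were found in 11.3% and 20.0%, and ETS letters in 4.74% and 10.3%. Regions coded for Young and OldAcetate had 19.0% for AP-1, 26.2% for TEAD, 16.2% for SP/KLF and 8.64% for ETS. Those coded for Old and Young had 21.5%, 31.4%, 12.8% and 7.12% in the same order. The AP-1, TEAD and SP/KLF shares were thus not particular to the Young-only regions. At promoters alone, SP/KLF letters were found in 32.9% of Young-only regions and 34.9% of regions coded for all 3 groups, ETS letters in 11.6% and 16.5%, and the E-box in 4.88% and 8.65%. ETS letters were found in 3.97% and 5.82% within genes and in 3.23% and 6.59% between genes, and SP/KLF letters in 7.52% and 9.09% and in 7.86% and 9.25%. AP-1 letters were found in 25.6% and 22.1% between genes, and within genes in 17.7% and 21.2%. These are counts of letters, not of bound sites.

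**Figure D4:**
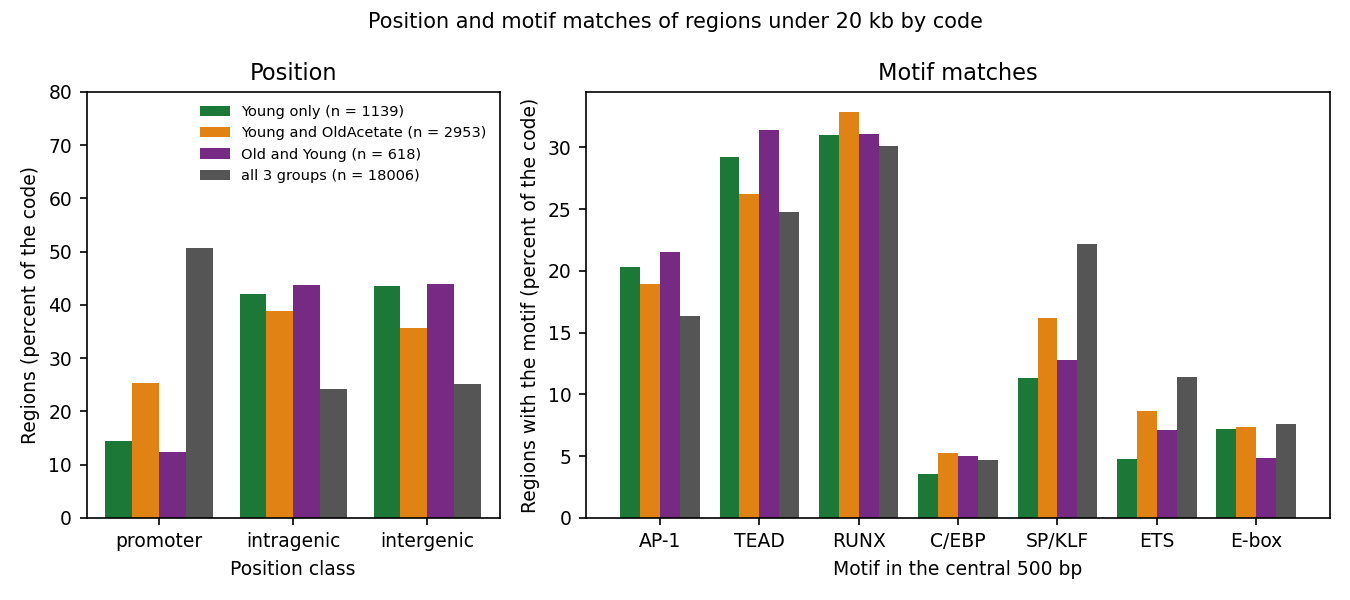
Share of regions in percent of each code (vertical axes) by position class (left) and with each of 7 motifs in the central 500 bp (right), for 4 codes. Young-only regions (green) have 14.4% at promoters and 11.3% with the SP/KLF letters, and regions coded for all 3 groups (grey) have 50.7% and 22.2%.

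Among the Young-only promoters with the highest mean level was that of Eng, which encodes endoglin, a co-receptor for TGF-beta and a surface marker of MSCs. Its region at chr2:32644001-32656500, over the promoter shown above, had 34.5 and 22.9 RPM in Young replicates 1 and 2, 17.1 and 22.7 in Old and 17.5 and 26.3 in OldAcetate. Young replicate 1 stood above all other libraries, whereas Young replicate 2 lay just above Old replicate 2 and below OldAcetate replicate 2, so that Young and OldAcetate overlapped, and the Old vs Young difference was -0.15 ± 0.21 (SE). Eng was the only 1 of the 9 MSC markers whose start site region carried the code Y alone.

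Krt8 encodes keratin 8 of simple epithelia, and its region at chr15:102003001-102017500 had 32.9 and 23.7 RPM in the Young libraries, 29.1 and 13.9 in the Old ones and 24.5 and 27.9 after acetate, with every group overlapping the others. The Krt8 difference in Old vs Young was -0.11, and the region chr15:102003001-102017500 moved to 0.35 without Old replicate 2 and to -0.57 without Old replicate 1.

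Il1rn encodes the interleukin-1 receptor antagonist, and its region, whose promoter holds the AP-1 letters above, had 25.3 and 18.0 RPM in young cells, 17.6 and 11.1 in old cells and 11.1 and 15.4 in treated cells. Both Young libraries were above the other 4, by a narrow gap. Gzmk, which encodes granzyme K of cytotoxic lymphocytes, had 23.7 and 18.8 RPM in the Young libraries, 27.3 and 17.9 in the Old ones and 18.1 and 17.5 after acetate, and its highest library was Old replicate 1. The region over Prtn3, a neutrophil protease gene, and its neighbour Plppr3 had 28.6 and 20.8 RPM in young cells, 22.2 and 24.3 in old cells and 19.8 and 23.8 in treated cells, and all groups overlapped.

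Tuba1b, an alpha-tubulin gene with a CpG-rich promoter, had 22.0 and 18.8 RPM in the Young libraries, 12.9 and 13.1 in the Old ones and 17.1 and 19.2 after acetate. Young and OldAcetate overlapped and both lay above Old. Qrfp, which encodes a neuropeptide and lies beside Abl1, had 21.4 and 21.6 RPM in young cells, 12.5 and 18.3 in old cells and 19.8 and 13.8 in treated cells. The Young libraries were again the highest there. Of the 7 promoters described, 2 had both Young libraries above all others, against 46.6% of Young-only regions and 24.4% of all regions.

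Within genes, Gng12 and Nav2 had the Young, OldAcetate and Old libraries apart, in that order. Gng12, which encodes a G protein gamma subunit, had 29.9 and 29.0 RPM in young cells, 16.2 and 19.9 in old cells and 22.2 and 24.2 in treated cells, in 3 separate groups. Nav2, a neuron navigator gene, had 28.6 and 28.6 RPM in the Young libraries, 19.9 and 18.3 in the Old ones and 22.5 and 26.3 after acetate, also in 3 separate groups.

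Other strong regions within genes did not part into 3 groups. Tln2 encodes talin 2, which links integrins to actin, and had 30.3 and 23.7 RPM in young cells, 23.6 and 19.9 in old cells and 19.2 and 27.1 in treated cells. Only the Young and Old libraries were apart there, by a narrow gap. Maml3, a Notch coactivator gene, had 32.9 and 22.9 RPM in the Young libraries, 29.1 and 21.1 in the Old ones and 31.3 and 25.0 after acetate, and all groups overlapped. Sash1, Ccdc88c and Ankrd11 had Old vs Young differences of 0.14, -0.03 and 0.19 after scaling and of -0.21, -0.38 and -0.16 in RPM as deposited. The sign for Sash1 and Ankrd11 thus turned with the scaling. Ccdc88c had 32.9 and 30.2 RPM in young cells, 23.6 and 24.7 in old cells and 22.2 and 27.5 in treated cells. Ankrd11 had 29.3 and 29.0 RPM in young cells, 27.7 and 24.3 in old cells and 22.8 and 25.9 in treated cells. Both Young libraries were the highest at Ccdc88c and at Ankrd11. Of the 7 regions within genes, 4 had both Young libraries above all others, against 46.6% of Young-only regions and 24.4% of all regions.

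Between genes, the region at chr2:83700001-83717500 lay 6897 bp from a start site of Itgav, which encodes integrin alpha V. It had 39.2 and 38.4 RPM in young cells, 23.6 and 21.5 in old cells and 24.9 and 29.6 in treated cells, with group means and SDs (n = 2 each) of 38.8 ± 0.535, 22.5 ± 1.48 and 27.2 ± 3.36 RPM. The 3 groups were separate, with the Old vs Young difference at -0.42 ± 0.18 (SE). The region at chr4:89358501-89370500, 47462 bp from a start site of the cell cycle inhibitor gene Cdkn2b, had 29.6 and 30.2 RPM in the Young libraries, 23.6 and 16.3 in the Old ones and 13.1 and 20.4 after acetate. OldAcetate overlapped Old there, and its difference from Young was -0.74 ± 0.21 (SE).

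A region 20987 bp from F2r, the thrombin receptor gene, had 39.8 and 31.9 RPM in young cells, 28.7 and 29.0 in old cells and 29.9 and 29.6 in treated cells, and both Young libraries were the highest. Regions nearest to Nrsn1 and Npvf lay 352419 and 350562 bp from a start site, so that no gene can be tied to them by distance. In the Npvf region OldAcetate was the lowest group, with 16.5 and 17.9 RPM against 23.1 and 23.5 in Old, and Young replicate 2 (21.6 RPM) was below both Old libraries. Near Ttc32 the levels were 30.9 and 24.5 RPM in the Young libraries, 18.5 and 17.1 in the Old ones and 21.2 and 18.4 after acetate. Of the 6 regions between genes, 5 had both Young libraries above all others, against 46.6% of Young-only regions and 24.4% of all regions.

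**Figure D5:**
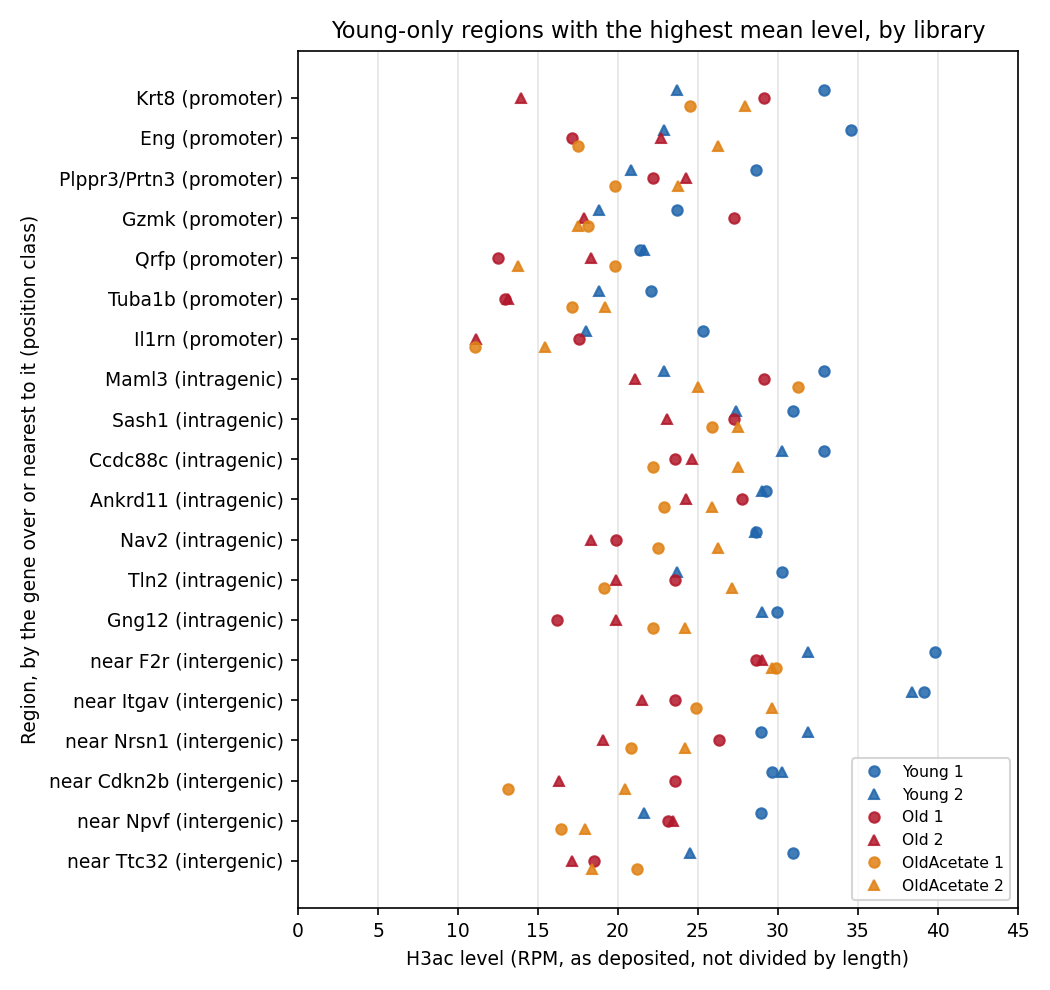
H3ac level in RPM (horizontal axis) in each of the 6 libraries at 20 Young-only regions with the highest mean level in their position class (vertical axis, by gene and class). Both Young libraries (blue) lie to the right of the other 4 in 11 of the 20, most clearly near Itgav. This order held in 46.6% of Young-only regions and 24.4% of all regions.

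The regions with the lowest p in the fit were short and held few reads. In an intron of Mitf, which encodes a transcription factor of melanocytes and osteoclasts, the region at chr6:97879501-97880500 had 20 and 15 reads in young cells, 2 and 1 in old cells and 6 and 8 in treated cells. Young, OldAcetate and Old were separate in that order. The region 49801 bp from Fosl2, an AP-1 subunit gene, had 16 and 7 reads in the Young libraries, 1 and 0 in the Old ones and 5 and 3 after acetate. The region 224081 bp from Lacc1 had 17 and 10 reads in young cells, 0 and 2 in old cells and 1 and 5 in treated cells. Both Young libraries were the highest in these regions, an order that their choice by low p in Old vs Young favours. It held in 46.6% of Young-only regions and 24.4% of all regions. With counts this low a fitted difference depends on the pseudocount and is no bound on a fold, so none is given.

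In OldAcetate vs Old the 3 lowest p pointed in both directions. A region in an intron of Maml2, a Notch coactivator gene, at chr9:13525501-13526500 had 17 and 5 reads in the Young libraries, 0 and 2 in the Old ones and 10 and 11 after acetate. OldAcetate lay with Young and above Old, and this was the region called without scaling. A region 23172 bp from Isg20, an interferon-induced exonuclease gene, had 23 and 24 reads in young cells, 13 and 12 in old cells and 4 and 5 in treated cells, so that OldAcetate was the lowest group. A region 20672 bp from Sec14l1 had 15 and 8 reads in the Young libraries, 7 and 13 in the Old ones and 0 and 6 after acetate, and Young and Old overlapped.

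Gene groups of MSC biology were counted by region. Of 20 lists with 459 genes, 413 genes had a region over or near them and 24 genes had a Young-only region, in 16 of the lists. No Young-only region was tied to the 41 regions of TGF-beta genes, the 48 of YAP, TAZ and TEAD genes, the 17 of AP-1 genes or the 42 of hypoxia and glycolysis genes. In these lists 4.66%, the share of Young-only regions in the table, corresponds to very few regions, so a count of 0 shows little. Of the 20 regions named from the lists, 9 had both Young libraries above the other 4, against 46.6% of Young-only regions and 24.4% of all regions.

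Bone, fat and cartilage lists held 1, 1 and 2 Young-only regions, of 34, 48 and 37 regions. Dlx3, a homeobox gene of osteoblasts, had 14.8 and 20.4 RPM in young cells, 13.4 and 10.7 in old cells and 16.8 and 15.8 in treated cells at its start site, and it was the only region of that gene. Young overlapped OldAcetate and both lay above Old. Zfp423, a factor of preadipocytes, had 1 Young-only region among 13, with 8.55 and 4.90 RPM in the Young libraries, 0.924 and 4.77 in the Old ones and 4.03 and 6.26 after acetate, so that Old replicate 1 alone stood low.

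Sox5, a cartilage factor gene, held 2 of its 14 regions among the Young-only regions. The region at chr6:144055001-144060000 had 17.4 and 11.0 RPM in young cells, 6.47 and 5.57 in old cells and 10.1 and 10.0 in treated cells, in 3 separate groups. Its Old vs Young difference was -0.79 ± 0.29 (SE) and its OldAcetate vs Old difference 0.46 ± 0.29 (SE). The region with the RUNX letters shown above had 9.54 and 11.4 RPM in the Young libraries, 9.24 and 5.97 in the Old ones and 10.1 and 6.26 after acetate, and its groups overlapped.

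The MSC surface list held Eng, Itgav and Cd44, 3 of 31 regions. Cd44, the hyaluronan receptor gene, had 21.4 and 9.39 RPM in young cells, 10.6 and 11.1 in old cells and 14.1 and 11.7 in treated cells. Young replicate 2 was the lowest of all libraries there, so only Young replicate 1 stood above the rest. Dcn, which encodes the matrix proteoglycan decorin, was the single case among 76 collagen and matrix regions, with 7.24 and 8.58 RPM in the Young libraries, 3.70 and 5.97 in the Old ones and 8.74 and 5.01 after acetate. Cnn3, a calponin gene, was the single case among 52 contractile regions, with 11.8 and 9.80 RPM in young cells, 5.55 and 7.16 in old cells and 7.73 and 7.51 in treated cells. At Cnn3, but not at Dcn, the Young libraries were above the others.

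Of the Wnt, BMP and Notch regions 1, 1 and 4 carried the code Y alone, against 4.66% of the whole table. Ror1, a Wnt receptor kinase gene, was 1 of 86 Wnt regions (1.16%), with 8.23 and 8.58 RPM in the Young libraries, 6.93 and 4.77 in the Old ones and 8.06 and 6.67 after acetate. Bmpr1b, a BMP receptor gene, was 1 of 42 BMP regions (2.38%), with 18.8 and 14.7 RPM in young cells, 12.9 and 9.55 in old cells and 10.8 and 12.1 in treated cells. In both the 2 Young libraries were the highest. The Notch list held 4 of 50 regions (8.0%), all in the coactivator genes Maml2 and Maml3.

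The list region of Maml2 had 21.7 and 21.2 RPM in the Young libraries, 18.0 and 13.5 in the Old ones and 17.8 and 18.8 after acetate. The second Maml3 region had 14.5 and 16.3 RPM in young cells, 13.9 and 9.94 in old cells and 11.4 and 9.18 in treated cells. Both Young libraries were above the other 4 in each. Nfkb1, which encodes an NF-kB subunit, was 1 of 27 inflammatory regions, with 7.90 and 5.31 RPM in the Young libraries, 5.55 and 2.78 in the Old ones and 4.70 and 2.50 after acetate. Hmga2, a chromatin protein gene of proliferating and senescent cells, was 1 of 29 senescence regions, with 17.1 and 10.2 RPM in young cells, 5.08 and 10.3 in old cells and 8.40 and 8.76 in treated cells. Young and Old overlapped at both genes.

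Acetyl-CoA genes held 1 of 28 regions and acetylation writers and erasers 1 of 55. Acaca encodes acetyl-CoA carboxylase, which turns acetyl-CoA into malonyl-CoA. Its region of 1000 bp had 4.28 and 2.45 RPM in the Young libraries, 3.70 and 1.99 in the Old ones and 0 and 2.09 after acetate. OldAcetate replicate 1 held no read there, and Young and Old overlapped.

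Limb and mesenchymal patterning factors held 6 of 105 regions, Meis1, Gli2, Gli3, Foxp2 and Tcf4 among their genes. Meis1 had 14.1 and 14.3 RPM in young cells, 12.5 and 13.5 in old cells and 9.07 and 11.3 in treated cells, so OldAcetate was the lowest group. Gli2, an effector of hedgehog signalling, had 11.5 and 10.2 RPM in young cells, 8.78 and 7.56 in old cells and 9.41 and 12.9 in treated cells. The Young libraries were the highest at Meis1, and the highest library at Gli2 was OldAcetate replicate 2.

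Markers of other cell types appeared as well, with 1 of 8 haematopoietic and 1 of 17 endothelial regions. Pecam1, an endothelial gene, had a region of 1000 bp in its body with 6.58 and 4.90 RPM in young cells, 0.462 and 1.59 in old cells and 2.69 and 2.50 in treated cells. The 3 groups were separate there, in the order Young, OldAcetate, Old. The part of other cells in the Young libraries was not tested.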

How the data were processed

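The deposited table gives RPM per region for 6 libraries. Per the submitters' processing notes, Bowtie2, Picard and mm10 were used; the region caller and the meaning of the codes are not given in the sources used here, nor whether the yeast DNA added to the stop buffer was used for scaling. The authors' RPM values are whole multiples of 1 read in 100% of cases (tolerance 0.01) and were not divided by length, so whole reads and library totals were recovered from them. Members and gene lists were chosen with earlier results of these data known.

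limma 3.58.1 in R 4.3.3 was fitted to log2(RPM + 0.5) of all 24431 regions and all 6 libraries, after subtracting the median deviation of each library, with eBayes trend and robust and Benjamini-Hochberg adjustment at 0.05. edgeR 4.0.16 (RLE factors, quasi-likelihood) was run on the recovered reads. The fits were tested on simulated data. p-values measure only the spread between these samples, which may be technical. Counting errors cover counting only. Other alternatives were pseudocounts of 0.1 and 1, no scaling, a filter on the lowest 25% of regions, a replicate block, eBayes without trend and robust, and omission of libraries, alone and without scaling. Omission without scaling, and the subsets by level and by touching, were added after seeing the data.

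Regions were annotated with GENCODE M21 as promoter (within 1 kb of a start of a protein-coding transcript), intragenic or intergenic, and tied to a gene they overlap or whose start is nearest and within 10 kb. Named regions are the 8 promoter, 8 intragenic and 6 intergenic members with the highest mean RPM, the 3 with the lowest p by age and the 3 with the lowest p by acetate (OldAcetate vs Old), up to 3 list members per list, and the 3 longest; a few that met the rule are not reported here and were not replaced. Genome sequence and promoters are RefSeq, GRCm38. Deviations of equal replicate numbers correlated at 0.01 (Young and Old), -0.03 (Young and OldAcetate) and -0.04 (Old and OldAcetate) across regions. Counting error lowers such correlations, so they cannot show whether replicate numbers paired the libraries. matplotlib 3.10.9 and Python 3.11.15 made the figures.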

Additional observations from a re-analysis of the deposited data

How the results depend on the processing

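Medians of the Young-only regions kept their direction under both pseudocounts and without each library in turn. Without scaling the Old vs Young median was -0.58, the one of OldAcetate against Old was 0.14, a turn of direction, and against Young -0.45, and 96, 1 and 0 regions were called. Without single libraries the medians ran from -0.25 to -0.18, from -0.15 to -0.073 and from -0.37 to -0.28, with 0 calls in each comparison, and without both scaling and single libraries from 0 to 175 (50 without Young replicate 2, 33 without Old replicate 2, 40 and 36 without OldAcetate replicates 1 and 2), from 0 to 6 and 0 regions were called. The replicate block gave 0 calls in each comparison. Under 5000 bp the Old vs Young and OldAcetate vs Young medians were -0.30 and -0.38. Outside the lowest 25% of regions by level, 301 Young-only regions had medians of -0.076, -0.15 and -0.21. Both Young libraries exceeded the other 4 in 246 regions after scaling, against 6.66% of all regions, and in 562 to 901 without single libraries, against 25.5% to 57.0%. Within 5 kb of a start site lay 19.8%, and within 5000 bp of another code 23.1%. In central windows of 300 bp the shares were 12.9% (AP-1), 18.8% (TEAD), 19.8% (RUNX), 2.37% (C/EBP), 7.55% (SP/KLF), 2.19% (ETS) and 4.57% (E-box). Beyond what fewer libraries, fewer regions and narrower windows imply by construction, the cause of these shifts was not tested. With 2 libraries per group and 15 reads in the median region in Old, small differences were not detectable at this depth.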

Other observations

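Young-only regions recurred in a few long genes, which were picked out after their counts were seen. Of the 682 genes tied to a Young-only region, 634 had 1 and 43 had 2. Itga9, which encodes integrin alpha 9, had 5 of its 11 regions coded Young only. Nav2 had 4 of 18, Pde4d, a cyclic AMP phosphodiesterase gene, had 3 of 23 and Tln2 had 3 of 8. The remaining 6 regions of Itga9 were coded for all 3 groups.

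The 15 regions in these 4 genes all lay within gene bodies. Both Young libraries were above the other 4 in 12 of them, 4 of 5 in Itga9, 3 of 4 in Nav2, 3 of 3 in Pde4d and 2 of 3 in Tln2. The share was 46.6% over all Young-only regions and 24.4% over all regions. Their scaled Old vs Young differences ran from -1.18 to 0.23, with 12 of 15 negative, against 76.0% of Young-only regions and 50.8% of all regions. The Itga9 region at chr9:118785001-118787000 had 8.88 and 7.76 RPM in the Young libraries, 3.70 and 3.58 in the Old ones and 4.03 and 3.34 after acetate. The Itga9 region at chr9:118629501-118631500 had 5.92 and 4.90 RPM in young cells, 5.55 and 4.37 in old cells and 5.38 and 5.01 in treated cells. The groups were apart from Young in the first and overlapped in the second, so regions of one gene with one code differed in how far the libraries were separated. The code used these libraries, and these values are a description.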
